A study of Drosophila simulans with 12 samples.

Results

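The genes described here are 7 Drosophila genes known for hybrid sterility or hybrid lethality (OdsH, Hmr, Lhr, Nup160, Nup98-96, JYalpha and gfzf) and unc-4, the paralog of OdsH. They were chosen by name from the array makers' gene symbols, and all 8 were found among the 12071 genes that the 2 array designs name. On the testis design 9 probe sets carried one of these symbols. On the abdomen design 9 probe sets carried 7 of them, and none was annotated to JYalpha. A probe set is a group of short probes whose signals are combined into 1 intensity for a transcript. RNA came from D. simulans males, 3 to 4 days old, of a sterile line (193s) and a fertile line (99F). Males of both lines carry a piece of the D. mauritiana X chromosome, the S variant at the OdsH locus in the sterile line and the F variant in the fertile one, and the pieces differ by a short stretch that holds exons 3 to 4 of OdsH, per the design text. Each line was measured in testis (about 150 males dissected) and in abdomen (about 50 males), with 3 extractions per line and tissue and 1 array for each, 12 arrays in all. Only 1 line of each kind was measured, from pooled males, and no label ties the extractions to separate cultures. The p-values therefore measure the spread among these arrays alone, and that spread may be technical.

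A hybrid incompatibility gene is one whose allele from one species fails in the genetic background of another, so that hybrids die or are sterile. OdsH encodes a homeodomain protein that arose by duplication of unc-4, a gene of neuronal development, and its D. mauritiana form is known for male sterility in a D. simulans background. Hmr and Lhr encode chromatin proteins of heterochromatin and centromeres that together kill hybrid sons of D. melanogaster and D. simulans. gfzf, which encodes a protein with zinc fingers and a glutathione S-transferase domain, is a further factor in that lethality. Nup160 and Nup98-96 encode nuclear pore proteins whose D. simulans forms are lethal in some hybrids with D. melanogaster. JYalpha encodes a sodium pump alpha subunit needed for sperm motility and lies on different chromosomes in these species, so that some hybrid males inherit none.

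Of the 8 genes, gfzf and JYalpha were higher in sterile testis, gfzf by 1.25-fold in one of its probe sets and JYalpha by 1.05-fold. Of the other genes only Nup98-96 entered the main test in testis, and it did not pass. OdsH, unc-4, Hmr, Lhr and Nup160 were not taken into that test, and 4 of them (OdsH, unc-4, Hmr and Nup160) were called absent on all 6 testis arrays. In abdomen only 2 of the 9 probe sets were tested and neither passed, where 0.544% of all 6983 tested abdomen probe sets did. The main test took testis probe sets that had a present call on every array of one line or of both, which 4 of the 9 had (both of gfzf, JYalpha and Nup98-96), and 2 of these 4 were called at a Benjamini-Hochberg adjusted p under 0.05, both higher in the sterile line. Of all 9927 testis probe sets tested, 60.4% were called in either direction, and 22.6% were called higher in the sterile line. With only 4 probe sets of 3 genes tested, nothing is read from the share of 2 in 4. The sterile and fertile values of 5 of the 9 testis probe sets did not overlap, where the same held for 49.6% of all testis probe sets. In whole testes, fewer cells of a type and less RNA per cell cannot be told apart.

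The arrays of 1 line correlated across probe sets at 0.993 to 0.995 in testis and at 0.903 to 0.918 in abdomen, on the log2 scale. Array medians lay at 212.2 to 216.2 intensity units in sterile and 219.4 to 221.9 in fertile testis, so small testis changes depend on scaling. Germline markers were present as the tissue label says, with 13 of 15 tested in testis, 4 higher, 3 lower and a mean log2 level of 10.06 to 10.09 in sterile against 10.04 to 10.10 in fertile samples. With arrays centred on their medians 5 of these rose and 1 fell. Germline markers were not confined to the testis samples. In abdomen, on the other array design, the list lay at 8.11 to 8.58 in sterile and 8.37 to 8.68 in fertile samples. There Mst98Ca had 14962 ± 2305 units in sterile and 16708 ± 3105 in fertile samples (SD, n = 3 for each). betaTub85D was dimmer there, at 360.1 ± 87.4 and 499.0 ± 52.3. Markers of other tissues were also present in the testis samples, and some moved. The mean log2 level of the 12 midgut genes on the array was 6.72 to 6.83 in sterile against 9.53 to 9.55 in fertile samples. All 8 of them that passed the filter were called lower in the sterile line, but 6 of the 8 passed it through the fertile line alone, and Jon25Bi and Jon25Bii were called absent on all sterile arrays. Of 7 accessory gland genes 4 fell and none rose (2 fell and 1 rose after centring), at levels of 11.63 to 11.70 in sterile against 11.79 to 11.83 in fertile samples. Both fat body genes tested fell (list level 8.68 to 8.74 against 8.70 to 8.78), and of 4 muscle genes 1 rose and 1 fell, or 2 rose and 1 fell under both scalings (8.17 to 8.20 against 8.14 to 8.21). In abdomen 2 of 11 midgut genes rose, 1 of 5 accessory gland genes fell, and no tested germline, fat body or muscle gene was called. The abdomen arrays of 1 line differed widely in the fat body list, at 10.00 to 12.49 in sterile and 10.04 to 12.23 in fertile samples. The widest spread was in its yolk protein genes Yp1 and Yp2, whose log2 changes had SEs of 2.11 and 1.92. Those of Fbp1 and Lsp2 were 0.49 and 0.41, and those of apolpp and Cyp4g1 0.15 and 0.17. Yp1 had 16358 ± 27787 units in sterile and 8944 ± 14888 in fertile abdomen (SD, n = 3 for each). Each SD was above its mean, and the source of this spread was not tested. The part of these tissues in the results below was not tested.

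OdsH, whose exons 3 to 4 lie in the stretch that differs between the lines, had 132.2, 126.9 and 123.7 intensity units on the 3 sterile testis arrays (replicates A, B and C). Its probe set had 182.8, 136.5 and 176.5 units on the fertile ones. All 3 sterile values lay below the lowest fertile value, but fertile replicate B stood only slightly above them. The means were 127.6 ± 4.33 for sterile and 165.3 ± 25.1 for fertile testis (SD, n = 3 for each; exact two-sided permutation p = 0.1, the smallest that 3 against 3 arrays can give). In a limma fit over all 18769 testis probe sets, where 40.1% were called, OdsH was lower in the sterile line with an adjusted p of 0.0225. This rested on single arrays, with adjusted p = 0.0645 without sterile replicate C, 0.105 without fertile replicate A and 0.0888 without fertile replicate C. It was 0.0622 without the intensity trend in the variance. Since OdsH was called absent on all arrays, no fold is given, and the sources used here do not place its probes inside or outside the differing exons.

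The paralog unc-4 moved the other way in the same samples. Its probe set had 73.3, 61.7 and 72.3 units in sterile testis, against 40.9, 56.1 and 48.9 units in fertile testis. The lowest sterile value stood above the highest fertile one, by less than the range within either line. The means were 69.1 ± 6.41 for sterile and 48.6 ± 7.58 for fertile testis (SD, n = 3 for each; exact permutation p = 0.1), and the fit over all probe sets gave an adjusted p of 0.0321. Without sterile replicate A this became 0.0966, without sterile replicate C 0.0928, without fertile replicate A 0.122 and without fertile replicate C 0.0651. As for OdsH, every array gave an absent call for unc-4, and no fold is given.

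**Figure D1:**
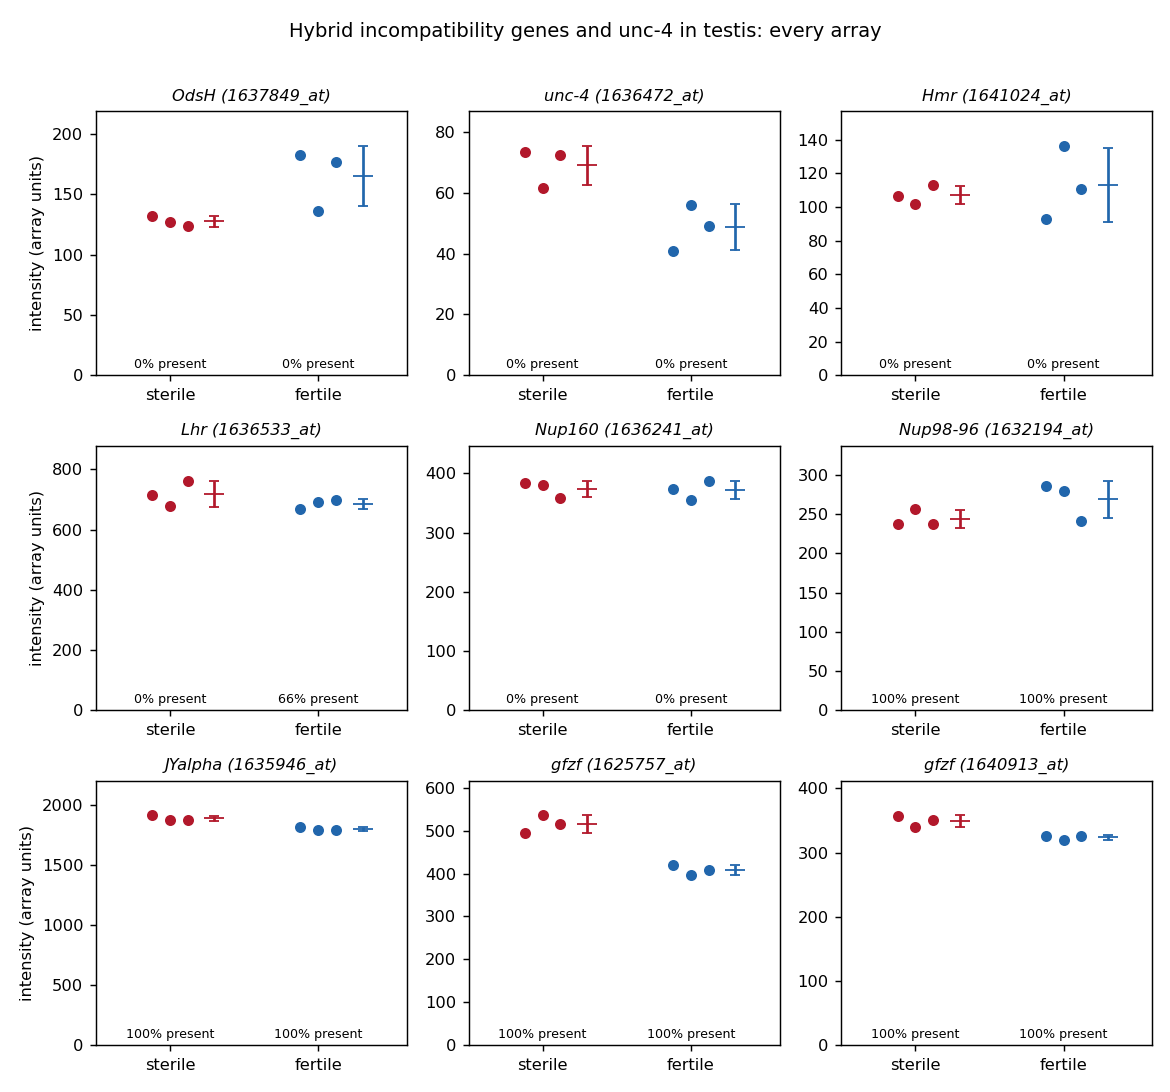
Intensity (vertical axis, array units, from 0) of the 9 testis probe sets of the 8 genes, with the sterile line left and the fertile line right in each panel. Points are arrays (replicates A to C from left to right), bars are mean ± SD (n = 3), and the percent below gives the arrays of the line with a present call in the authors' deposited table. The values of OdsH, unc-4, JYalpha and both gfzf probe sets do not overlap between lines, and those of Hmr, Lhr, Nup160 and Nup98-96 do.

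gfzf had 495.7, 535.8 and 515.8 units in sterile testis by probe set 1625757_at, against 419.5, 396.8 and 407.3 units in fertile testis. All sterile arrays stood well above all fertile ones, and the gap between the lines was wider than the spread within either. The means were 515.8 ± 20.1 for sterile and 407.8 ± 11.4 for fertile testis (SD, n = 3 for each), a fold change of 1.25 (95% interval 1.18 to 1.34) on the intensity + 16 scale. The log2 fold change was 0.33 ± 0.04 (SE) with an adjusted p of 7.97e-06 in limma, and it passed under all 14 alternatives, at 0.30 to 0.40. This was the largest change among the 4 tested probe sets of these genes, and it compares with a median absolute log2 fold change of 0.14 over all tested testis probe sets.

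The other gfzf probe set, 1640913_at, had 357.3, 339.3 and 350.1 units in sterile testis, against 325.9, 319.8 and 325.1 units in fertile testis. Its values did not overlap between the lines either, but the shift was smaller and missed the threshold in the main test. The log2 fold change was 0.10 ± 0.05 (SE) with an adjusted p of 0.0687. It passed with arrays centred on their medians (0.15, adjusted p = 0.0141), after quantile normalization (0.16, adjusted p = 0.00664), without the intensity trend (adjusted p = 0.0216) and without sterile replicate B (adjusted p = 0.05 after rounding). Within each array, the log2 level of 1625757_at minus that of 1640913_at was 0.54 ± 0.09 for the sterile and 0.32 ± 0.03 for the fertile testis (SD, n = 3 for each; exact permutation p = 0.1, the smallest possible). This within-array difference was 0.22 larger in the sterile line, and the lines did not overlap in it.

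By Pearson correlation of log2 values over the 6 testis arrays, the genes most like gfzf (1625757_at) among 8547 probe sets were lic, a MAP kinase kinase gene (r = 0.998), and CG6790 (r = 0.996). lic had 521.3 ± 21.0 units for the sterile and 416.4 ± 14.4 for the fertile testis (SD, n = 3 for each). CG6790 had 5790 ± 73.7 in sterile and 5344 ± 21.9 in fertile testis. Such a likeness is common here, since 643 probe sets reached an r over 0.95 with gfzf, whose own values split the lines. Whether the values of each of these probe sets also split the lines was not tested.

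Hmr and Lhr, the chromatin partners of the hybrid lethality system, showed no difference in testis beyond the spread between arrays. Hmr had 106.6, 101.9 and 112.8 units in sterile testis, against 92.7, 136.6 and 110.9 units in fertile testis. The fertile arrays spanned a wider range that enclosed all sterile values (exact permutation p = 0.8, limma adjusted p = 0.744 over all probe sets), and Hmr was called absent on all 6. Lhr had 713.9, 679.1 and 763.0 units in sterile testis, against 667.3, 692.0 and 696.8 units in fertile testis. The ranges overlapped, with means of 718.6 ± 42.2 for sterile and 685.4 ± 15.8 for fertile testis (SD, n = 3 for each; exact permutation p = 0.3, limma adjusted p = 0.281 over all probe sets). Of the 14 alternatives, Lhr passed after quantile normalization only, at an adjusted p of 0.0138. The authors' detection calls went the other way from these means, with Lhr present on 66% of fertile and 0% of sterile arrays.

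Of the nuclear pore genes, Nup160 had 383.7, 379.8 and 358.5 units in sterile testis, against 373.3, 355.2 and 387.2 units in fertile testis. The lines could not be separated, with means of 374.0 ± 13.5 for the sterile and 371.9 ± 16 for the fertile line (SD, n = 3 for each; exact permutation p = 0.9). Nup98-96, a gene that yields Nup98 and Nup96 from 1 precursor, had 237.4, 257.1 and 237.8 units in sterile testis, against 285.8, 279.7 and 241.1 units in fertile testis. Fertile replicate C lay among the sterile values and the other fertile arrays above them. The log2 fold change was -0.13 ± 0.07 (SE, 95% interval -0.27 to 0.01) with a limma adjusted p of 0.105, and without fertile replicate C it was -0.20 with an adjusted p of 0.015.

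JYalpha had 1917, 1881 and 1882 units in sterile testis, against 1819, 1794 and 1796 units in fertile testis. All sterile arrays were above all fertile ones, and replicates lay close together. The means were 1893 ± 20.8 for sterile and 1803 ± 14.3 for fertile testis (SD, n = 3 for each), with a log2 fold change of 0.07 ± 0.02 (SE) and a limma adjusted p of 0.018. The change did not pass without sterile replicate A (adjusted p = 0.0618), fertile replicate B (0.0529) or fertile replicate C (0.0533). It was larger with arrays centred on their medians, at 0.12. JYalpha was present on all 6 arrays. The platform annotation of this probe set lists the symbol for 2 gene IDs, which were taken as 1 gene here.

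Detection calls and intensities did not go together for some of these genes. Nup160 was called absent on every testis array at a mean of 372.9 units, while Nup98-96 was called present on every one at 244.1 ± 11.3 units for the sterile and 268.8 ± 24.2 for the fertile testis (SD, n = 3 for each). Of 823 testis probe sets within 10% of the level of Nup160, 17.6% were absent on all 6 arrays and 61.8% present on all 6. Near the level of Lhr 11.3% of 638 probe sets were absent throughout. Near the levels of OdsH, Hmr and unc-4 the share absent throughout was 37.8%, 43.4% and 57.9%. The arrays were designed for D. melanogaster genes, and whether mismatches to the D. simulans sequences lie under these probes was not tested.

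**Figure D2:**
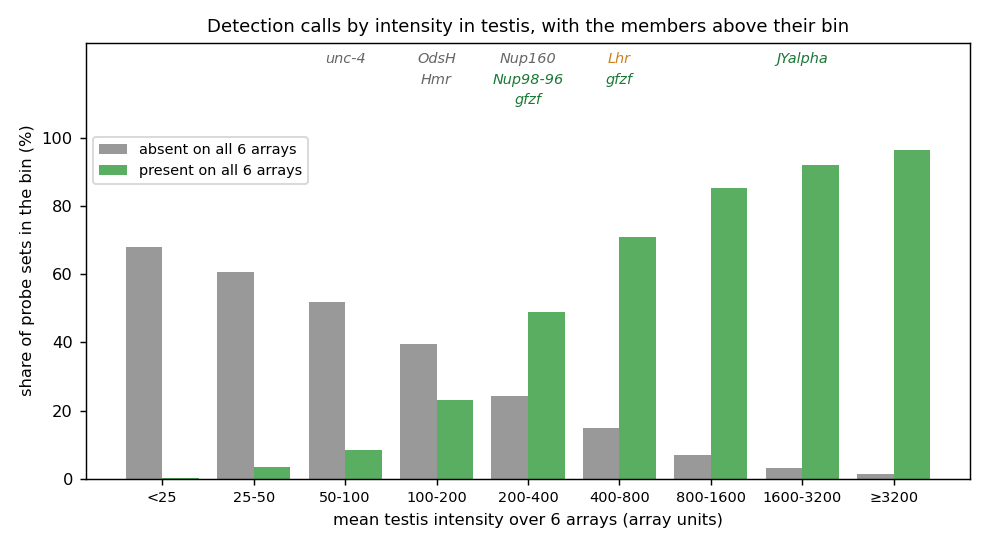
Share of testis probe sets (vertical axis, percent) called absent on all 6 arrays (grey) or present on all 6 (green), by mean intensity over the 6 arrays (horizontal axis, array units). Gene names stand above the bin of their probe set, grey where absent on all 6 arrays, green where present on all 6 and orange for Lhr, which was present on 66% of fertile arrays. Nup160 and Nup98-96 fall in the bin of 200 to 400 units, where 24.3% of probe sets were absent throughout and 48.9% present throughout.

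The authors' deposited table, which compares the same testis arrays, marks none of the 9 probe sets among its 1233 marked ones. In the authors' deposited table the fold score, fertile over sterile and negative where the sterile line is higher, was -1.27 for gfzf 1625757_at (p = 0.005629, the only p under 0.05 among the 9, against 28.2% of all probe sets). In the authors' deposited table it was 1.31 for OdsH (p = 0.09819), -1.44 for unc-4 (p = 0.069849) and -1.05 for JYalpha (p = 0.051046). As OdsH and unc-4 were called absent on every testis array, nothing is read from the size of their scores.

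In abdomen none of the 7 genes measured passed, and replicates of these probe sets lay far apart. The abdomen test took probe sets whose mean log2 level was at or above the design's median (about 201.3 units), which 2 of the 9 did, 1 of Nup160 and 1 of Nup98-96. Neither was called by limma, where 0.544% of 6983 tested probe sets were, or 0.931% with the replicate letter as a block. At an unadjusted p under 0.05 the counts were 1 of the 2, which was Nup160, and 8.12% of all tested. Nup160 reached the filter through its sterile arrays, since its fertile mean of 150.8 units lay below the filter level, and nothing is read from this count. The SD over the mean of the 3 arrays of a line had a median of 52.4% over the abdomen probe sets of these genes (4.54% to 107.5%), against 4.10% in testis (0.795% to 19.4%). The 2 tissues were measured on different array designs and dissections, and these were not separated.

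Nup160 had 294.4 and 348.2 units in replicates A and C of sterile abdomen, with replicate B lower but above every fertile array, against 148.7, 126.4 and 177.2 units in fertile abdomen. The means were 282.5 ± 72.3 for sterile and 150.8 ± 25.5 for fertile abdomen (SD, n = 3 for each). The sterile arrays were all above the fertile ones, which made it the 1 abdomen probe set of 9 without overlap, where 12.3% of all non-control abdomen probe sets had none. The log2 fold change was 0.82 ± 0.36 (SE, 95% interval 0.00 to 1.64) with a limma adjusted p of 0.615 (exact permutation p = 0.1). It stayed uncalled under all 13 abdomen alternatives, at adjusted p of 0.426 to 0.908.

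Nup98-96 had 824.3, 814.6 and 750.2 units in sterile abdomen by its brightest probe set, 143027_at, against 593.3, 713.6 and 969.7 units in fertile abdomen. The fertile arrays spread to both sides of the sterile ones. The log2 fold change was 0.10 ± 0.21 (SE, 95% interval -0.39 to 0.58) with a limma adjusted p of 0.954, and the 95% interval of the fold ran from 0.766 to 1.49. Its probe set 150469_at lay at 35.2 to 38.3 units in sterile and 30.1 to 212.4 in fertile abdomen, and 142111_at at 38.9 to 184.5 in sterile and 29.2 to 281.5 in fertile abdomen. Both overlapped between lines and lay below the filter.

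OdsH had 49.4, 19.2 and 17.0 units in sterile abdomen, against 51.9, 33.6 and 17.6 units in fertile abdomen (exact permutation p = 0.6). unc-4 had 230.2, 32.3 and 223.2 units in sterile abdomen, against 124.3, 209.6 and 164.8 units in fertile abdomen (exact permutation p = 1). For both genes the lines overlapped, and sterile replicate B of unc-4 lay far below the other sterile arrays. Within replicate letters OdsH was lower in the sterile line in all 3 pairs, with differences of -2.5, -14.4 and -0.6 units and a limma adjusted p of 0.92 with the letter as a block. A single direction in all 3 pairs was seen for 2 of the 9 probe sets (OdsH and Nup160) and for 30.2% of all non-control abdomen probe sets. Hmr lay at 102.2 to 215.2 units in sterile and 96.1 to 352.6 in fertile abdomen, Lhr at 16.9 to 122.5 and 10.0 to 136.0, and gfzf at 67.9 to 193.7 and 57.9 to 200. All 3 overlapped between lines, with exact permutation p of 0.4, 0.8 and 0.7.

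**Figure D3:**
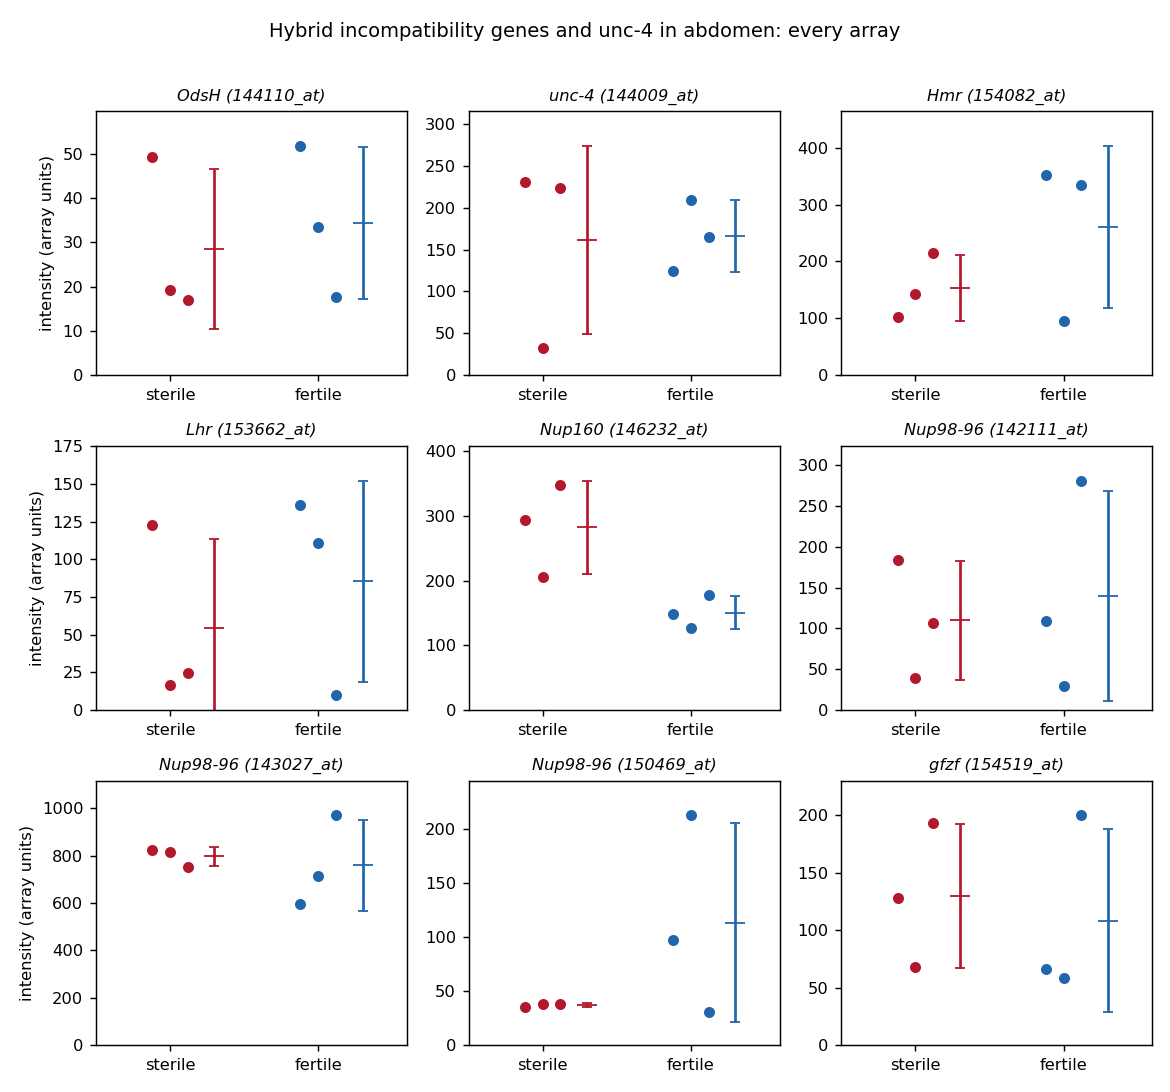
Intensity (vertical axis, array units, from 0) of the 9 abdomen probe sets, with the sterile line left and the fertile line right in each panel, on a different array design from testis. Points are arrays (replicates A to C from left to right) and bars are mean ± SD (n = 3), drawn from 0 for Lhr in the sterile line, where the mean minus the SD falls below 0. Nup160 alone shows no overlap between lines.

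The change in testis minus that in abdomen could be tested for 1 of these genes, Nup98-96, which passed the filter in both tissues. The difference was -0.22 ± 0.23 on the log2 scale (SE, 95% interval -0.73 to 0.28) with a limma adjusted p of 0.685, while 5.38% of 4774 genes were called. Without filters all 7 genes on both designs entered, and none was called among 10755 genes, of which 2.87% were. Nup160, the 1 gene of the 7 with an unadjusted p under 0.05, was at -0.81 (95% interval -1.44 to -0.19, limma adjusted p = 0.193), with the testis probe set called absent throughout. This fit used 1 residual variance for both tissues, though the median residual SD of tested probe sets was 0.05 in testis and 0.30 in abdomen. Its SE for Nup160, 0.28, was below the 0.37 of the abdomen change alone without filters. The interval may therefore be too narrow, and nothing is read from its excluding 0. For gfzf the change in testis minus that in abdomen was 0.01 in the same fit, with a 95% interval of -1.22 to 1.25.

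**Figure D4:**
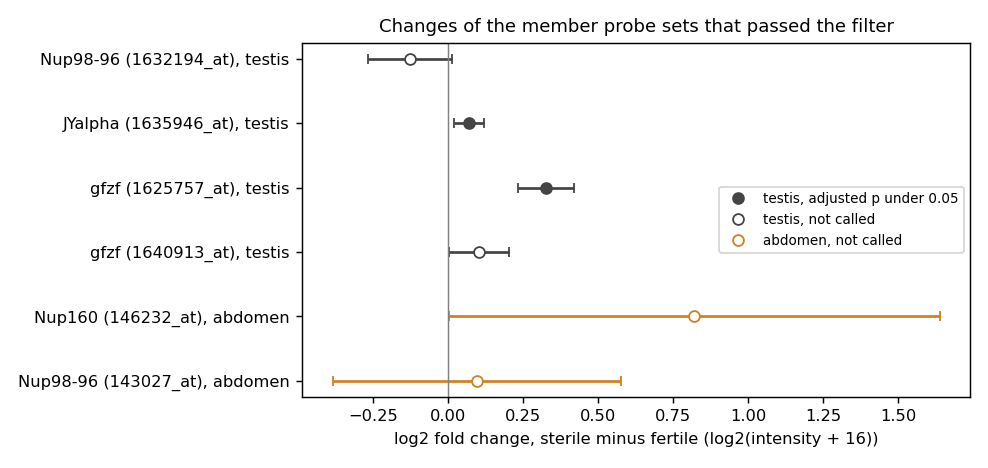
Log2 fold change of sterile minus fertile (horizontal axis, on log2(intensity + 16)) with 95% intervals from limma, for the 4 testis and 2 abdomen probe sets that passed the filter (vertical axis). Filled points have an adjusted p under 0.05, which holds for JYalpha and gfzf 1625757_at in testis, and the abdomen intervals are several times as wide as those of testis.

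Genes that work with these proteins or are related to such genes were also counted in testis, from lists chosen by known function or family. The Hmr and Lhr list held genes of heterochromatin and centromere proteins and further HP1-family genes, not all of them known partners. Of its 18 genes on the array 11 were tested, 2 rose, 6 fell and 3 were not called (median log2 fold change -0.12, against -0.04 over all tested probe sets). After centring on array medians 3 rose and 5 fell, and after quantile normalization 2 rose and 5 fell. Over all 9927 tested probe sets 22.6% were called higher and 37.8% lower, 60.4% in all, or 2941 higher and 2941 lower after centring and 3028 higher and 2959 lower after quantile normalization. The counts of the 5 lists stand beside these shares as descriptions. The HP1-family gene HP1c rose, at 967.2 ± 35.9 units for the sterile and 413.2 ± 23.2 for the fertile testis (SD, n = 3 for each; limma adjusted p = 8.23e-13). Whether its product works with Hmr or Lhr was not tested. cid, the centromeric histone gene, rose by 0.48 ± 0.07 (SE) and cal1, whose product loads that histone, fell by 0.38 ± 0.04 on the log2 scale.

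Of 20 nuclear pore genes tested in testis, 7 rose, 4 fell and 9 were not called (median 0.04). After centring 9 rose and 2 fell, and after quantile normalization 10 rose and 2 fell. The 11 of 20 called are near the 60.4% called over all. Nup133, a member of the same pore subcomplex as Nup160, fell by 0.78 ± 0.05 (SE) on the log2 scale, with 252.0 ± 12.9 units for the sterile and 442.8 ± 15.2 for the fertile testis (SD, n = 3 for each; limma adjusted p = 1.68e-09). Nup93-2 fell by 0.40 ± 0.05, and Gle1, which acts in mRNA export, rose by 0.27 ± 0.05. In the sodium pump list, 2 of 6 rose, 3 fell and 1 was not called (median -0.17), with the same counts under both scalings. The beta subunit genes nrv3 and nrv2 fell by 0.63 ± 0.07 and 0.38 ± 0.03, and CG5250, also a beta subunit gene, rose by 0.40 ± 0.04.

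Of 4 genes linked to gfzf, 2 rose and 2 fell (median -0.15), with the same counts under both scalings. M1BP, a zinc finger gene whose product works with the gfzf protein at promoters, rose by 0.45 ± 0.04 (SE) on the log2 scale, with 565.4 ± 1.69 units for the sterile and 409.0 ± 7.30 for the fertile testis (SD, n = 3 for each; limma adjusted p = 4.92e-08). Trf2, a TBP-related factor gene, fell by 0.46 ± 0.04 and Trl, the GAGA factor gene, by 0.54 ± 0.05, though Trl was called present on 100% of sterile and 33% of fertile arrays. Of 19 paired-type homeobox genes on the array, 8 were tested, 1 rose, 2 fell and 5 were not called (median -0.01, 0.04 after centring). prd, a pair-rule gene, fell by 0.34 ± 0.03. Ptx1 fell by 0.20 ± 0.07 in the tested probe set, which did not pass under either scaling, while a probe set below the filter was higher by 0.42 ± 0.14. Rx had a log2 fold change of 0.33 ± 0.18 (limma adjusted p = 0.132). It passed the filter through the sterile line alone, with present calls on 100% of sterile and 33% of fertile arrays. In abdomen none of the tested genes of the 5 lists (13, 15, 3, 4 and 5 in the same order) was called by limma, and 1, 1, 0, 0 and 1 of them had an unadjusted p under 0.05. Of all tested abdomen probe sets 0.544% were called and 8.12% had such a p.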

How the data were processed

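Affymetrix arrays of 2 designs for D. melanogaster genes were used, 1 per tissue. The authors deposited linear intensities. Per the submitters' processing notes, MAS5 made the abdomen intensities. Those notes name MAS5 for testis too, but 26 to 37 testis values per array fall below 0, which MAS5 signals do not, so how they were made is not given in the sources used here. Present calls came as a percent of arrays per line in the authors' deposited table, with a signed fold score and p-values. That table does not say which line its baseline and experiment columns are. They were taken as sterile and fertile because, for 99.7% of probe sets, the mean it gives for the experiment differed from the mean of the fertile testis arrays by no more than 2 percent or 2 units. The 12 columns per array in that table match titles of both tissues and were not used.

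Values below 0 were set to 0, log2(intensity + 16) was taken, and each tissue was fitted with limma 3.58.1 (R 4.3.3, intensity trend). Benjamini-Hochberg adjustment ran over 9927 testis and 6983 abdomen probe sets, and a probe set below the filter was read from the fit over all of them and not counted. The difference between tissues was 1 contrast over 12 arrays, with 1 residual variance per gene for both tissues. Genes without a single symbol were left out, and a gene with several probe sets was represented by the brightest. All probe sets of the 8 genes are given, the 3 list genes with the largest testis change in each list, and the 2 genes most like the member with the largest change. Members and lists were chosen with earlier results of these data known. The fits were tested on simulated data. Same-letter arrays of the 2 lines had correlated deviations of 0.15, 0.29 and 0.26 in abdomen (letters A, B and C) and of -0.07, 0.15 and 0.05 in testis. Arrays of different letters reached 0.16 in testis and no more than -0.02 in abdomen. The letters may therefore pair the abdomen arrays, though these correlations are weak. The main abdomen fit and the permutation tests do not use such a pairing, and the fit with the replicate block does. The number of arrays limits the precision.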

Additional observations from a re-analysis of the deposited data

How the results depend on the processing

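The 14 testis alternatives were pseudocounts of 4 and 64, centring on medians, quantile normalization, no filter, a filter on level, no intensity trend, a replicate block and leaving out each array, and abdomen had 13 of these. The count of called testis probe sets, 2 as reported, was 4 without a filter (OdsH and unc-4 joined) and 1 to 3 when single arrays were left out. With the replicate block it was 2, no other call changed, and the abdomen count over all probe sets was 65, against 38 without the block. In abdomen, and for the difference between tissues, no member was called under any alternative run. No called change reversed its sign. In testis OdsH, unc-4 and Hmr, the dimmest of the 8 genes, were never called present, and in abdomen 7 of the 9 probe sets lay below the filter.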
